A study of Mus musculus with 8 samples.

Results

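The measurements described here are the interaction of genotype and cell population: for each gene, the difference between PRC1 dKO and control in cKit+ spermatogonia minus the same difference in Thy1+ spermatogonia, on the log2 scale. A negative interaction means that the dKO-control difference was lower in cKit+ than in Thy1+ cells, and a positive one that it was higher. All 14907 genes with enough counts, of 23343 in the deposited tables, and all 8 of the 8 libraries entered it. Total RNA came from Thy1+ and cKit+ spermatogonia of C57BL/6 mouse testes at postnatal day 7, with the genotype label PRC1ctrl or PRC1dKO, in 2 libraries for each of the 4 groups. The labels do not spell out the deleted genes, the control genotype or the Cre driver. They also do not say whether the 2 libraries of a group came from separate animals, so the p-values measure only the spread between these libraries, which may be technical. RNA was amplified before library preparation, and the deposited read counts were 6763908 to 10976869 per library.

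Polycomb repressive complex 1 (PRC1) places ubiquitin on histone H2A through the RING finger proteins RING1 and RNF2, and keeps developmental regulators silent in many cell types. In the male germ line it has been tied both to the silencing of somatic genes and to the activity of germ cell genes. In the postnatal testis, THY1 is used to enrich undifferentiated spermatogonia, which include the stem cells. KIT, the receptor for stem cell factor, marks the differentiating spermatogonia that arise from them under retinoic acid and later enter meiosis. Whether loss of PRC1 has the same effect in the cells on either side of this step is the question that the interaction addresses.

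The labels and the targeted complex were checked first. Kit stood at 301 and 317 CPM in Thy1 control, 311 and 281 in Thy1 dKO, 1049 and 938 in cKit control and 1059 and 1012 in cKit dKO, higher in all 4 cKit+ libraries. Thy1 stood at 26 and 18 CPM in Thy1 control, 12.8 and 15.8 in Thy1 dKO, 0.433 and 1.15 in cKit control and 1.28 and 0 in cKit dKO, higher in all 4 Thy1+ libraries. Bulk libraries do not tell which cells held these transcripts, and the purity of the sorted cells was not measured. Summed Leydig markers were 3350 to 5284 CPM in Thy1+ and 12783 to 20634 in cKit+ libraries. Peritubular and stromal markers were 12205 to 15750 and 3551 to 7131, and core germ cell genes 3282 to 4107 and 849 to 3348, in that order. Ring1 stood at 3.16 and 2.7 CPM in Thy1 control, 2.59 and 5.17 in Thy1 dKO, 4.5 and 5.23 in cKit control and 12 and 4.08 in cKit dKO, low in control and dKO libraries alike. Rnf2 stood at 103 and 120.4 CPM in Thy1 control, 128 and 126 in Thy1 dKO, 146 and 125 in cKit control and 134 and 141 in cKit dKO, within a narrow range in all 8 libraries. A targeted deletion can leave the rest of a transcript in place, so whole-gene counts of Ring1 and Rnf2 check neither genotype. The interaction was 0.33 ± 0.74 (SE) for Ring1, -0.16 ± 0.18 for Rnf2 and 0.12 ± 0.15 for Kit, with edgeR adjusted p-values of 0.856, 0.673 and 0.697.

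The interaction passed the test for 883 genes, 5.92% of those tested (edgeR quasi-likelihood test, two-sided, Benjamini-Hochberg adjusted p under 0.05 over all genes). It was negative for 605 genes (4.06%) and positive for 278 (1.86%). Nearly all of these calls went with a change in cKit+ cells: 585 of the 605 negative ones were also called lower in cKit+ dKO, and 260 of the 278 positive ones called higher there. In Thy1+ cells, 12 of the negative and 7 of the positive ones were called. In all, the dKO effect was called for 93 genes in Thy1+ cells (0.624%), 54 of them higher (0.362%), and for 4259 in cKit+ cells (28.6%), 1965 higher (13.2%) and 2294 lower (15.4%). Of the 4259 genes called in cKit+ cells, 845 also had a called interaction, so for most of them a difference between the populations was not shown. The interaction exceeded a 2-fold difference of effects, 1 on the log2 scale, for 501 of the called genes, 374 negative and 127 positive.

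Across genes, the median size of the dKO effect was 0.23 in Thy1+ and 0.45 in cKit+ cells on the log2 scale, with nearly equal median standard errors of 0.24 in both. The effects in the 2 populations rest on separate libraries, and across the 14907 genes they had a Pearson correlation of 0.297 and a Spearman correlation of 0.379, given as a description since genes are not independent replicates. Among 10236 genes at a mean log2 CPM (reads scaled to library size) of at least 3, the Pearson correlation was 0.490. The plot of the 2 effects shows the negative calls below the diagonal and the positive ones above it, with most of both close to no effect in Thy1+ cells.

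**Figure D1:**
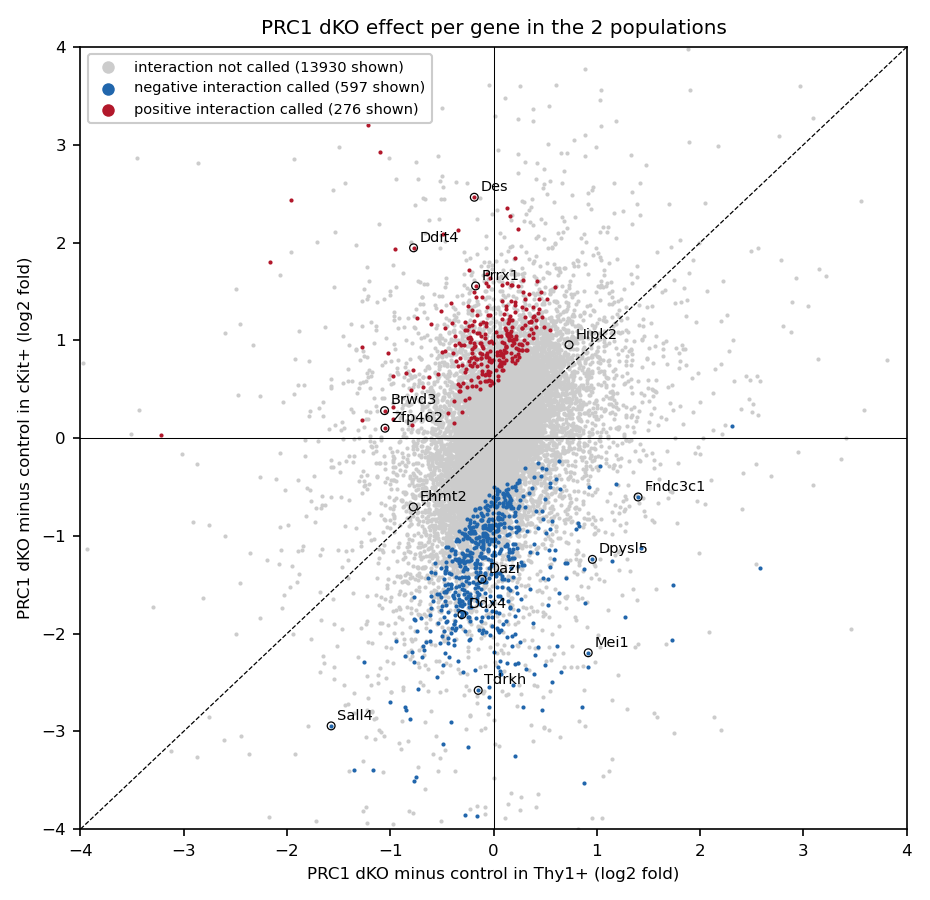
PRC1 dKO minus control in Thy1+ cells (x axis) against cKit+ cells (y axis), both in log2 fold, with 1 point per gene for the 14803 of 14907 genes within 4 of 0 on both axes. Blue points are called negative and red points called positive interactions, grey points are not called, and the dashed line marks equal effects.

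The number and the balance of calls depended on single libraries and on scaling. Of the 883 calls, 193 (149 negative and 44 positive) were made again in each of the 8 fits that left out 1 library. The count was 297 without Thy1 control replicate 1, 526 without Thy1 control replicate 2, 219 without Thy1 dKO replicate 1, 378 without Thy1 dKO replicate 2 and 367 without cKit control replicate 1. Positive calls numbered 460 without cKit control replicate 2, 473 without cKit dKO replicate 1 and 550 without cKit dKO replicate 2. Positive calls were 31.5% of all calls under the scaling used here, 15.1% with library totals, 40.3% with RLE scaling, 43.5% in DESeq2 and 3.51% on the deposited RPKM values. With libraries scaled to their own germ cell transcripts, 99.6% of 8614 calls were positive, and the median interaction moved from -0.02 to 1.23. That last setting asks which genes changed relative to germ cell RNA. Under it the median interaction was above 0 for each of the 38 lists other than core germ cell identity (-0.10) and oocyte and granulosa markers (-0.18).

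Germ cell genes were the list with the highest share of called members (76.9%). Of the 26 measured genes of core germ cell identity, 20 had a negative interaction call and none a positive one. The median interaction of the list was -1.34 against -0.02 over all genes tested, and its median dKO effect was -0.26 in Thy1+ and -1.61 in cKit+ cells. The calls of 12 members were made again without each library in turn, and the fits without 1 library gave 12 to 21 calls, lowest without Thy1 dKO replicate 1. Fewer cells of a type and less RNA per cell cannot be told apart in bulk libraries. With scaling to germ cell transcripts, which uses this list and the piRNA list, its median was -0.10.

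Sequences just upstream of the starts of some such genes are shown as examples, which were not drawn at random. Below are 250 bases before the RefSeq start (GRCm38.p6, the build of the deposited mm10 coordinates) of Ddx4 at chr13:112652311-112652560 (- strand), Stk31 at chr6:49395354-49395603 (+ strand), Taf7l at chrX:134476491-134476740 (- strand), Mael at chr1:166238745-166238994 (- strand) and Dazl at chr17:50293621-50293870 (- strand). Capitals mark CACGTG, the E-box that MAX heterodimers such as MGA-MAX can bind, and GGCGGGAA or its reverse complement TTCCCGCC, an E2F-type site. MGA, MAX, E2F6 and L3MBTL2 are parts of a variant PRC1 known from embryonic stem cells for holding germ cell genes silent.
Ddx4: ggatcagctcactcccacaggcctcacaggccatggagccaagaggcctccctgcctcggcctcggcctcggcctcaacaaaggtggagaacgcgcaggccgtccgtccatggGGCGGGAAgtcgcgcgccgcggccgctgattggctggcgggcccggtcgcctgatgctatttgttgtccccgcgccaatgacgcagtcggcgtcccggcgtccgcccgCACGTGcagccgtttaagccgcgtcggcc
Stk31: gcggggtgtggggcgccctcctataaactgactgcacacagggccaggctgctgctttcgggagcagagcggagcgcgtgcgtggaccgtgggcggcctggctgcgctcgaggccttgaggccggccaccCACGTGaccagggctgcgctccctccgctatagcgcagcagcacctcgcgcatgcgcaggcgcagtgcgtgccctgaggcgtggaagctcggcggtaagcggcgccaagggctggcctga
Taf7l: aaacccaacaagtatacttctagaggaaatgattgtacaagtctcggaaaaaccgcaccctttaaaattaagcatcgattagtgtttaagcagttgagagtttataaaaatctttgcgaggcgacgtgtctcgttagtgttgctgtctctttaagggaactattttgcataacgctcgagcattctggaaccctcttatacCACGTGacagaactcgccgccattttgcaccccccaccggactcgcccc
Mael: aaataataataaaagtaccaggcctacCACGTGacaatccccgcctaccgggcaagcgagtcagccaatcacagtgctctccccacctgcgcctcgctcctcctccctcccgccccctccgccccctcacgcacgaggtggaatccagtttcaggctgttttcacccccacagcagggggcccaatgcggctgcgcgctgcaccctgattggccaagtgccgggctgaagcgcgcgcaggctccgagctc
Dazl: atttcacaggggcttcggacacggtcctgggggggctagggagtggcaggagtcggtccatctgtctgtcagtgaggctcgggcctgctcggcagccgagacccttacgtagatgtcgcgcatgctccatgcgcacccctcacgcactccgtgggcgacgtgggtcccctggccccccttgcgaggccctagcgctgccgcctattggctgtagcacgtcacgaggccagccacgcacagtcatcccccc
The first 4 hold an E-box, Ddx4 also an E2F-type site, and the bases shown for Dazl hold neither. Being picked for display, they do not give the share of members with a motif. Tdrd12, Tdrkh and Usp26, called members of the core germ cell and piRNA lists with lower interactions, hold neither motif in the same bases. A role of these motifs or of the variant PRC1 was not tested.

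A window of 300 bases, 250 before to 50 after the start, was matched for 21 of the 26 core germ cell genes and 21 of the 26 piRNA genes. An E-box on either strand was present in 8 core germ cell windows (38.1%) and 9 piRNA windows (42.9%), against 7.15% of the 32851 windows of the reference table. Each motif was searched on both strands and on its own, so matches of 2 motifs may overlap, and the E-box reads the same on both strands. The E2F-type site was present in 5 core germ cell windows (23.8%), in 1 piRNA window (4.76%) and in 2.19% of all windows. The 32851 windows were not limited to genes tested here. Their median GC content was 52.67%, against 61.33% in core germ cell and 60.33% in piRNA windows. Their median ratio of observed to expected CG pairs was 0.384, against 0.75 and 0.78. Both motifs hold a CG, and the shares were not compared with windows of like composition. The 2 lists share Ddx4, Mael, Mov10l1, Rnf17 and Tdrd5, so the lists are not separate counts. A match is a description of letters, not a binding site. Windows were matched for 76.5% of the negative and 61.9% of the positive interaction calls, which is under the 80% needed, so this check is void for the called genes as a whole.

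Ddx4, the germ cell RNA helicase, stood at 149 and 191 CPM in Thy1 control, 141 and 135 in Thy1 dKO, 147 and 108 in cKit control and 34.3 and 38.7 in cKit dKO. The cKit dKO libraries lay under all 6 others. Its effect was -0.31 ± 0.15 (SE) in Thy1+ and -1.81 ± 0.17 in cKit+ cells, an interaction of -1.50 ± 0.23 (edgeR adjusted p = 0.00193). Dazl, an RNA-binding regulator of germ cell translation, stood at 581 and 708 CPM in Thy1 control, 648 and 545 in Thy1 dKO, 489 and 378 in cKit control and 146 and 173 in cKit dKO. It showed the same order, with an interaction of -1.33 ± 0.20 (edgeR adjusted p = 0.00199). Usp26, Taf7l, Stk31 and Tex11 had the lowest interactions among the called members. Taf7l, a germ cell paralog of a general transcription factor subunit, stood at 201 and 238 CPM in Thy1 control, 201 and 202 in Thy1 dKO, 202 and 146 in cKit control and 40.7 and 54.7 in cKit dKO. Stk31, a germ cell kinase-like protein, stood at 84.6 and 88.3 CPM in Thy1 control, 69.3 and 73.5 in Thy1 dKO, 57.2 and 52.6 in cKit control and 11.4 and 16.6 in cKit dKO. Their interactions were -1.80 ± 0.22 for Usp26, -1.74 ± 0.23 for Taf7l, -1.69 ± 0.23 for Stk31 and -1.68 ± 0.28 for Tex11, each called without any 1 library. Of the 26 members, 24 had an interaction below 0, and Tdrd5 (0.10) and Nanos3 (2.73), named after their values were seen, were above 0 without passing the test.

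The piRNA pathway, which silences transposons in germ cells, had 11 negative calls among 26 measured members (42.3%, against 4.06% of all genes), and none positive. Its median effect was -0.40 in Thy1+ and -1.56 in cKit+ cells. The calls of 6 members were made again without each library in turn, and with germ cell scaling the list's median was 0.012, above 0. Tdrkh, a Tudor protein needed to trim piRNAs, stood at 47.9 and 41.6 CPM in Thy1 control, 42.7 and 37.8 in Thy1 dKO, 62.6 and 47.2 in cKit control and 9.45 and 8.94 in cKit dKO. Both cKit dKO values were far below the other 6, and the interaction was -2.43 ± 0.27 (edgeR adjusted p = 0.000834). Morc1, which represses transposons in the male germ line, stood at 81.9 and 87.7 CPM in Thy1 control, 42.8 and 41.7 in Thy1 dKO, 41.5 and 37.8 in cKit control and 5.12 and 7.06 in cKit dKO. Unlike the genes above, it was called lower in both populations, at -1.01 ± 0.16 in Thy1+ and -2.70 ± 0.20 in cKit+ cells, and the interaction was -1.69 ± 0.25 (edgeR adjusted p = 0.0018). Tdrd12, a Tudor-domain helicase, had an interaction of -2.53 ± 0.54, which did not pass without Thy1 control replicate 1, Thy1 dKO replicate 1 or cKit control replicate 1 (edgeR adjusted p up to 0.0748). Tdrd6, a germ granule scaffold, had no counts in either Thy1 control library, 3.04 and 3.27 CPM in Thy1 dKO, 0.52 and 0.383 in cKit control and 0.48 and 0.471 in cKit dKO. Against an assumed floor of 3 counts over the Thy1 control group it was 16.9-fold higher in Thy1 dKO. That ratio leaves out the error of the Thy1 dKO counts. Its interaction was called in 3 of the 8 fits without 1 library, and not without either Thy1 control, either Thy1 dKO or cKit control replicate 1 (edgeR adjusted p up to 0.134). Tdrd6 is among 5 called genes with a group at 0, and the others, AV320801, Ptprq, Rell2 and Rmnd1, are named after their values were seen.

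Regulators of spermatogonial differentiation gave 7 negative calls among 20 measured genes (35%, against 4.06% of all genes) and no positive one. The median interaction of the list was -1.23. The 7 were Stra8, Sohlh1, Sohlh2, Dmrt1, Dmrtb1, Dnmt3b and Crabp1, of which the calls of 2 were made again without each library. With germ cell scaling the median was 0.00085. The interaction of 6 of the 20 members was above 0, and the summed level went the other way, at 3724 and 3604 CPM in cKit control and 4893 and 4464 in cKit dKO. Cyp26b1, an enzyme that degrades retinoic acid and is named after its values were seen, held the most reads of the list in each library and had an interaction of 0.27 that was not called. Sohlh2, a transcription factor needed for the step to KIT+ cells, stood at 48.4 and 53.8 CPM in Thy1 control, 79.4 and 69.8 in Thy1 dKO, 69.1 and 47.3 in cKit control and 23.4 and 23.5 in cKit dKO. Its estimates lay on opposite sides of 0, at 0.55 ± 0.17 in Thy1+ and -1.32 ± 0.19 in cKit+ cells, though only the latter was called. Its interaction was -1.86 ± 0.25 (edgeR adjusted p = 0.00112). Stra8, the retinoic acid target that prepares meiosis, stood at 30.8 and 30.6 CPM in Thy1 control, 28 and 24.2 in Thy1 dKO, 70.3 and 48.9 in cKit control and 18.7 and 19.9 in cKit dKO. Its interaction was -1.40 ± 0.28 (edgeR adjusted p = 0.00882), and it did not pass without Thy1 dKO replicate 1 or cKit control replicate 1 (up to 0.0673). Dnmt3b, a de novo DNA methyltransferase induced in differentiating spermatogonia, stood at 85.7 and 92.4 CPM in Thy1 control, 77.3 and 74.1 in Thy1 dKO, 146 and 114 in cKit control and 35.1 and 45.3 in cKit dKO. Its interaction of -1.46 ± 0.22 was called without any 1 library. Kit itself, by which the cells were sorted, had overlapping control and dKO levels within each population, and its interaction interval was -0.19 to 0.43. Which cells held these Kit reads was not measured.

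Genes of undifferentiated spermatogonia had calls in both directions. With germ cell scaling the list had 15 positive and 0 negative calls and a median of 1.49, and its median was below 0 on the RPKM values. Of 33 measured, 2 had positive calls, Ddit4 and Etv5, and 3 negative ones, Sall4, Itga6 and Mcam. Together these were 15.2% of the list, against 5.92% of all genes. Only the calls of Ddit4 and Sall4 were made again without each library in turn. Sall4, a transcription factor of undifferentiated spermatogonia, stood at 174 and 191 CPM in Thy1 control, 62.2 and 60.3 in Thy1 dKO, 132 and 118 in cKit control and 14.2 and 18.2 in cKit dKO. It was called lower in both populations, -1.57 ± 0.13 in Thy1+ and -2.94 ± 0.15 in cKit+ cells, and more so in the latter, with an interaction of -1.37 ± 0.20 (edgeR adjusted p = 0.00167). Zbtb16, which maintains spermatogonial stem cells, stood at 143 and 167 CPM in Thy1 control, 106 and 102 in Thy1 dKO, 58.4 and 61.9 in cKit control and 24.2 and 27.8 in cKit dKO. Its interaction of -0.63 ± 0.19 did not pass (edgeR adjusted p = 0.0672). Gfra1, the receptor for GDNF on stem cells, stood at 30.4 and 39.7 CPM in Thy1 control, 53.6 and 47.2 in Thy1 dKO, 1.99 and 1.4 in cKit control and 3.2 and 2.04 in cKit dKO. Its low level in cKit+ cells left the interaction wide, with an interval of -0.81 to 0.93. Etv5, a transcription factor downstream of GDNF and FGF signals, stood at 70.6 and 78.5 CPM in Thy1 control, 101 and 101 in Thy1 dKO, 40.2 and 45.2 in cKit control and 97.3 and 116 in cKit dKO. Its interaction of 0.89 ± 0.19 (edgeR adjusted p = 0.0137) was called in 4 of the 8 fits without 1 library, and not without Thy1 control replicate 2, either Thy1 dKO replicate or cKit control replicate 1 (up to 0.0816).

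Genes of meiotic prophase had 10 negative calls among 33 measured members (30.3%, against 4.06% of all genes) and none positive. Their median effect was 0.02 in Thy1+ and -0.88 in cKit+ cells. The calls of 7 were made again without each library in turn, and with germ cell scaling the median was 0.15. Mei1, needed for meiotic DNA breaks, stood at 8.81 and 8.1 CPM in Thy1 control, 18.2 and 13.6 in Thy1 dKO, 15.1 and 13.3 in cKit control and 2.08 and 4.08 in cKit dKO. The Thy1 dKO libraries lay above both Thy1 controls, and the cKit dKO libraries below both cKit controls. Its interaction of -3.11 ± 0.47 (edgeR adjusted p = 0.00181) was the lowest among called genes with a mean log2 CPM of at least 3 whose library differences did not overlap. Smc1b, the meiotic cohesin subunit, stood at 198 and 229 CPM in Thy1 control, 339 and 308 in Thy1 dKO, 213 and 169.7 in cKit control and 71.1 and 102 in cKit dKO. It had the same order, with effects of 0.60 ± 0.15 and -1.15 ± 0.16 and an interaction of -1.75 ± 0.22 (edgeR adjusted p = 0.00084). Synaptonemal complex and cohesin genes with negative calls were Sycp1, Sycp2, Syce1, Syce2 and Stag3.

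The lowest interactions outside these lists, by the same selection as for Mei1, were those of Zkscan2, Hid1, Ugt8a, Aifm3, 1700018B24Rik, Bnc1, Abcc8, Ddx43 and Amigo1, at -2.63 to -2.20. All were called without any 1 library except Abcc8, which was called in 5 of the 8 fits (edgeR adjusted p up to 0.119 without Thy1 control replicate 2, Thy1 dKO replicate 1 or cKit control replicate 1). Bnc1, a zinc finger protein of germ cells and keratinocytes, stood at 56.7 and 57.9 CPM in Thy1 control, 71.7 and 57.4 in Thy1 dKO, 60.6 and 55.5 in cKit control and 9.77 and 16.8 in cKit dKO, an interaction of -2.30 ± 0.28 (edgeR adjusted p = 0.000834). Its Thy1 groups lay close together, and both cKit dKO libraries were below all 6 others. Zkscan2, a zinc finger protein, stood at 15.6 and 13.9 CPM in Thy1 control, 11.5 and 9.39 in Thy1 dKO, 17.6 and 18.6 in cKit control and 1.44 and 2.67 in cKit dKO, in the same order, an interaction of -2.63 ± 0.45 (edgeR adjusted p = 0.00357).

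**Figure D2:**
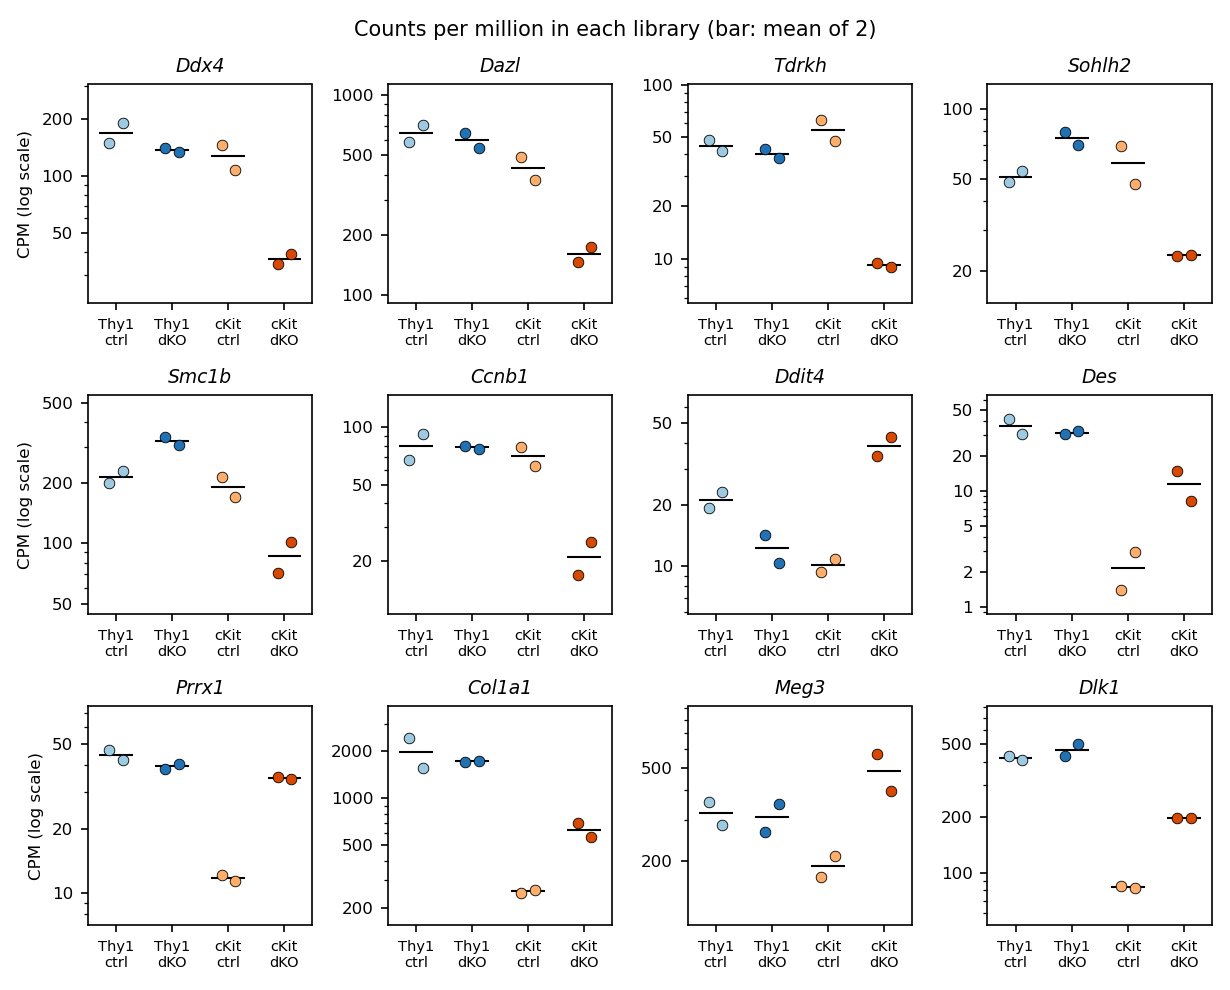
CPM on a log axis in each of the 8 libraries for 12 genes, with 1 point per library and a bar at the mean of 2. In the first 6 panels (Ddx4, Dazl, Tdrkh, Sohlh2, Smc1b, Ccnb1) the cKit dKO libraries are the lowest, and in the other 6 they lie above the cKit control libraries.

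Cell cycle genes followed. Negative calls made up 60% of mitosis, 22.5% of replication and 15.2% of Fanconi anemia and recombination genes, against 4.06% of all genes. Of 45 measured genes of mitosis and the G2 and M phases, 27 had a negative call and none a positive one, with a median effect of -0.13 in Thy1+ and -1.05 in cKit+ cells. The calls of 10 were made again without each library in turn, and the lowest count was 11, without Thy1 dKO replicate 1. Ccnb1, the mitotic cyclin, stood at 67.2 and 91.7 CPM in Thy1 control, 80.2 and 76.9 in Thy1 dKO, 79.1 and 62.9 in cKit control and 16.8 and 24.9 in cKit dKO, an interaction of -1.75 ± 0.27 (edgeR adjusted p = 0.00234). Cenpf, a kinetochore protein, stood at 341 and 362 CPM in Thy1 control, 293 and 283 in Thy1 dKO, 495 and 387 in cKit control and 114 and 142 in cKit dKO, an interaction of -1.50 ± 0.19 (edgeR adjusted p = 0.000834). Both genes were lowest in the cKit dKO libraries and differed little between genotypes in Thy1+ cells. Of 40 replication and S phase genes, 9 had a negative call and 37 an estimate below 0, led by Mcm6 (-1.15 ± 0.19), Rpa2 (-1.12 ± 0.20) and Pole (-1.04 ± 0.20). Of the 9 calls, 3 were made again without each library in turn, and without Thy1 dKO replicate 1 the list had 3. Of 33 genes of the Fanconi anemia pathway and homologous recombination, 5 had a negative call, 2 of them without each library in turn, led by Brca1 (-1.57 ± 0.21), which stood at 109 and 112 CPM in Thy1 control, 105 and 96.8 in Thy1 dKO, 159.9 and 125 in cKit control and 48.3 and 39.4 in cKit dKO.

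The direction of these cell cycle groups rested on the scale. With libraries scaled to germ cell transcripts, the median interaction was 0.36 for the mitosis list, 0.56 for replication and 0.80 for the Fanconi list, and Mcm6, Rpa2 and Pole were at or above 0.12. The summed level of the mitosis genes was 4501 and 4699 CPM in Thy1 control, 4352 and 4244 in Thy1 dKO, 5089 and 4435 in cKit control and 2211 and 2564 in cKit dKO. It was thus lower in both cKit dKO libraries, as was the germ cell sum of 849 and 1183 CPM against 3348 and 2678 in cKit control. How much of the mitosis result goes with the germ cell level was not tested.

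A pair of upstream sequences of mitosis genes with negative calls are shown for their paired elements, Top2a at chr11:99024190-99024439 (- strand) and Mki67 at chr7:135716380-135716629 (- strand). Capitals mark TTTGAA or its reverse complement TTCAAA, the letters of the CHR element bound by the MuvB complexes of cell cycle genes, and CCAAT or ATTGG, bound by NF-Y.
Top2a: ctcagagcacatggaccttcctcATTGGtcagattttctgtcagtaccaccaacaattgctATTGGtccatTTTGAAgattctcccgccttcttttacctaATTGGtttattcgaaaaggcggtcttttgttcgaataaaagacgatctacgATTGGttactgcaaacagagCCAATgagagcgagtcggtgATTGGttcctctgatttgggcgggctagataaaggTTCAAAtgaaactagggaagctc
Mki67: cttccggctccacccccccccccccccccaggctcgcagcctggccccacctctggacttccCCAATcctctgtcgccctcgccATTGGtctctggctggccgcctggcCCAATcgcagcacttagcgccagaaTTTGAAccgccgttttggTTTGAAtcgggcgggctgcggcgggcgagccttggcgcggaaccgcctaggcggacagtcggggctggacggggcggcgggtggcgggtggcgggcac
TTTGAA on either strand was present in 25 of 38 windows of mitosis genes (65.8%) and in 17.9% of all windows of the reference table. CCAAT was present in 28 of the 38 (73.7%) and in 37.4% of all windows. These windows were matched for 84.4% of the 45 genes. Their median GC content was 59.67%, against 52.67% in all windows, and a background limited to tested genes was not counted. E-boxes were in 4 of the 38 (10.5%), against 38.1% for core germ cell genes. Top2a encodes the DNA topoisomerase of mitotic chromosomes and had an interaction of -0.96, and Mki67, the proliferation marker, -0.77. The pair was picked for display and does not give the share of members with a motif. Ccnb1 and Cenpf, with lower interactions, hold CCAAT but no TTTGAA in the same bases, and Nuf2 (-1.35) holds neither. A role of these motifs was not tested.

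Polycomb genes included some of the called ones. The median interaction was -0.13 for PRC1 subunits, with 12 of 32 above 0, and -0.26 for PRC2 subunits, with 3 of 12 above 0. Called members were 21.9% of PRC1 and 16.7% of PRC2 subunits, against 5.92% of all genes. Of 32 measured PRC1 subunits, 7 had negative calls and none positive: Pcgf5, Scml2, Cbx2, L3mbtl2, Phc1, Usp7 and Wdr5. The calls of 3 were made again without each library, and 10 of the 32 had an interval within a 1.5-fold difference of effects, against 11.1% of all genes. Pcgf5, a defining subunit of a variant PRC1, stood at 58.1 and 64.6 CPM in Thy1 control, 46.7 and 40 in Thy1 dKO, 75 and 57.7 in cKit control and 14.6 and 18.2 in cKit dKO, an interaction of -1.52 ± 0.25 (edgeR adjusted p = 0.00337). Scml2, a germ cell partner of PRC1, stood at 164 and 175 CPM in Thy1 control, 141 and 127 in Thy1 dKO, 162 and 120.1 in cKit control and 38.4 and 49.7 in cKit dKO, an interaction of -1.35 ± 0.22 (edgeR adjusted p = 0.00312). Both were lowest in the cKit dKO libraries. Cbx2, a chromodomain subunit of canonical PRC1, stood at 75.6 and 81.9 CPM in Thy1 control, 49.3 and 47.2 in Thy1 dKO, 70.6 and 73.5 in cKit control and 15.2 and 24.9 in cKit dKO. Its interaction of -1.13 ± 0.26 was called in 2 of the 8 fits without 1 library (edgeR adjusted p 0.00101 to 0.0907), and not without Thy1 control replicate 1, either Thy1 dKO or cKit control replicate, or cKit dKO replicate 1. Of 12 PRC2 subunits, Jarid2 (-0.93 ± 0.19) and Eed (-0.81 ± 0.23) had negative calls, and neither was called without Thy1 control replicate 1 or Thy1 dKO replicate 1. Eed was called in 0 of the 8 fits without 1 library (edgeR adjusted p 0.0526 to 0.204). With germ cell scaling the medians of both lists were above 0, at 1.14 for PRC1 and 1.01 for PRC2.

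Among 33 genes of DNA and histone H3K9 methylation, 7 had negative calls, among them Dnmt1 (-0.97), Uhrf1 (-0.97), Setdb2 and Suv39h2, and 2 positive, Tet1 (0.82) and Mbd2 (0.70). Called members were 27.3% of the list, against 5.92% of all genes. The list had 0 positive calls in edgeR without either Thy1 control, either Thy1 dKO or cKit control replicate 1, with library totals or with the replicate block, and 4 of the negative calls were made again without each library in turn. Suv39h2, a testis-enriched H3K9 methyltransferase, stood at 109.5 and 112 CPM in Thy1 control, 70.7 and 74.5 in Thy1 dKO, 126 and 97.1 in cKit control and 32.2 and 31.4 in cKit dKO, an interaction of -1.20 ± 0.20 (edgeR adjusted p = 0.00354). It was lowest in cKit dKO, and under germ cell scaling its interaction was 0.08. Dnmt1 copies methylation after replication, and Tet1 oxidises it. Nucleoporins, the proteins of the nuclear pore, had 6 negative calls among 29 (20.7%, against 4.06% of all genes) and 27 estimates below 0. Nup210, Nup133, Nup93 and Nup205 led them, at -1.24, -0.97, -0.98 and -0.89, and without Thy1 dKO replicate 1 the list had 0 calls in edgeR. With germ cell scaling its median was 0.88.

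Positive interactions were led by genes of peritubular and stromal cells. Of 23 measured markers of these cells, 12 had a positive call (52.2%, against 1.86% of all genes) and none a negative one. Their median interaction was 1.12 against -0.02 over all genes, with a median effect of -0.23 in Thy1+ and 0.88 in cKit+ cells. The calls of 7 were made again without each library in turn. The median stayed above 0 under all 22 alternatives, at 0.61 or more. Their summed level was 15750 and 12205 CPM in Thy1 control, 13673 and 14247 in Thy1 dKO, 3593 and 3551 in cKit control and 7131 and 5742 in cKit dKO. The Thy1 groups overlapped, and the cKit dKO libraries lay above the cKit control and below every Thy1+ library.

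Des, the muscle intermediate filament desmin, stood at 41.3 and 30.6 CPM in Thy1 control, 30.7 and 32.4 in Thy1 dKO, 1.39 and 2.94 in cKit control and 14.7 and 8.16 in cKit dKO, an interaction of 2.65 ± 0.46 (edgeR adjusted p = 0.00427). Dpt, the matrix protein dermatopontin, stood at 184 and 141 CPM in Thy1 control, 119 and 126 in Thy1 dKO, 13.6 and 9.95 in cKit control and 30.4 and 32 in cKit dKO, an interaction of 1.80 ± 0.24 (edgeR adjusted p = 0.00108). Both followed the order of the summed level, highest in Thy1+ cells and higher in cKit dKO than in cKit control. Col1a1, a chain of type I collagen, stood at 2417 and 1560 CPM in Thy1 control, 1706 and 1740 in Thy1 dKO, 248 and 261 in cKit control and 699.8 and 562 in cKit dKO, an interaction of 1.52 ± 0.22 (edgeR adjusted p = 0.00167). Prrx1, a mesenchymal homeobox factor, stood at 46.9 and 42 CPM in Thy1 control, 38.3 and 40.6 in Thy1 dKO, 12.1 and 11.4 in cKit control and 34.9 and 34.3 in cKit dKO, an interaction of 1.73 ± 0.24 (edgeR adjusted p = 0.00122). All 4 were called without any 1 library. Actg2, smooth muscle gamma actin, had a larger estimate of 4.40 ± 1.04 at low levels, 36.4 and 7.28 CPM in Thy1 control, 6.19 and 4.9 in Thy1 dKO, 0.346 and 1.15 in cKit control and 1.92 and 5.65 in cKit dKO, where the first Thy1 control library was far above the second. It was called in 3 of the 8 fits without 1 library, and not without Thy1 control replicate 1, either Thy1 dKO replicate, cKit control replicate 1 or cKit dKO replicate 2 (edgeR adjusted p up to 0.172). Of 42 collagens, 8 had positive calls and none negative, against 1.86% positive over all genes, but 2 were called without Thy1 dKO replicate 1 or without cKit control replicate 1. Secreted signalling proteins called positive were Inhba, Fstl1, Sfrp1, Sfrp2 and Dkk3, 5 of 53 (9.43%, against 1.86% of all genes). The calls of 2, Inhba and Fstl1, were made again without each library in turn, while Dkk3 was called in 5 and Sfrp2 in 3 of these 8 fits, and the list had 2 calls without Thy1 control replicate 1, Thy1 dKO replicate 1 or cKit control replicate 1. Inhba, a subunit of activins, stood at 355 and 279.7 CPM in Thy1 control, 380.1 and 394 in Thy1 dKO, 107 and 104 in cKit control and 337 and 256 in cKit dKO, with an interaction of 1.20 ± 0.20, and Fstl1, a secreted glycoprotein of the follistatin family, at 1086 and 817 CPM in Thy1 control, 842 and 909.5 in Thy1 dKO, 167 and 182 in cKit control and 387 and 331 in cKit dKO, with 1.16 ± 0.19. Akap6, Slc38a5, Crispld1, Fmo1, Gstm6, Ifitm1, 4833403I15Rik and Pcdhgb4 were the others among the 12 highest, at 1.67 to 2.23, and Pcdhgb4 shares exons with its cluster, so its reads may be split. Crispld1 and Fmo1 were called without any 1 library. Akap6, Gstm6, Ifitm1 and 4833403I15Rik were called in 4 of these 8 fits, Slc38a5 in 2 and Pcdhgb4 in 1, and none of the 6 without Thy1 control replicate 1 or Thy1 dKO replicate 1 (edgeR adjusted p up to 0.180).

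Sertoli, Leydig, endothelial and macrophage markers were called at a share near or below the 5.92% of all genes. Called members were 3.57% of Sertoli and 5.88% of Leydig markers, and 0% of endothelial and macrophage markers. T cell markers had 1 negative call among 6 (16.7%), Cd3e. Oocyte and granulosa markers had 2 among 10 (20%), Lhx8 and Sohlh1, and mast cell markers none among 12. With lists this small, such counts are not read as a result about these cells. Sertoli markers gave no positive call among 28, and their only negative one, Dmrt1, is also a germ cell gene. Leydig markers gave 1 positive call among 17, Thbs2 (1.14 ± 0.23), and endothelial markers none among 16. Thbs2 stood at 171 and 143 CPM in Thy1 control, 171 and 160.1 in Thy1 dKO, 30 and 22.6 in cKit control and 70.6 and 52.7 in cKit dKO, the order of the stromal sum and not of the Leydig sum, and its call was lost without Thy1 control replicate 1 or Thy1 dKO replicate 2 (edgeR adjusted p up to 0.0656). Their median effects were above 0 in both populations, at 0.40 and 0.80 for Sertoli, 0.33 and 0.53 for Leydig and 0.68 and 0.93 for endothelial markers, in Thy1+ and cKit+ cells in that order. Summed Leydig markers were 3350 and 4188 CPM in Thy1 control, 4815 and 5284 in Thy1 dKO, 12783 and 15540 in cKit control and 17943 and 20634 in cKit dKO. Summed Sertoli markers were 1413 and 1433 CPM in Thy1 control, 1597 and 1657 in Thy1 dKO, 2065 and 2155 in cKit control and 2775 and 2818 in cKit dKO. Summed endothelial markers were 440.2 and 431, 639 and 656, 303 and 324 and 552 and 599 CPM in the same order. These 3 sums were higher in dKO than in control libraries of both populations, and their part in the interactions of other genes was not tested. Macrophage markers, with no call among 18, differed between the replicates of a cKit+ group, at 246 and 524 CPM in cKit control and 205 and 689 in cKit dKO. Gata4, a gonadal somatic factor, stood at 134 and 135 CPM in Thy1 control, 193 and 186 in Thy1 dKO, 259 and 277 in cKit control and 477 and 484 in cKit dKO, called higher in both populations. Its interaction of 0.35 ± 0.15 did not pass (edgeR adjusted p = 0.184), nor did that of Wt1, a Sertoli factor, at 1.09 ± 0.36 (0.0952).

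**Figure D3:**
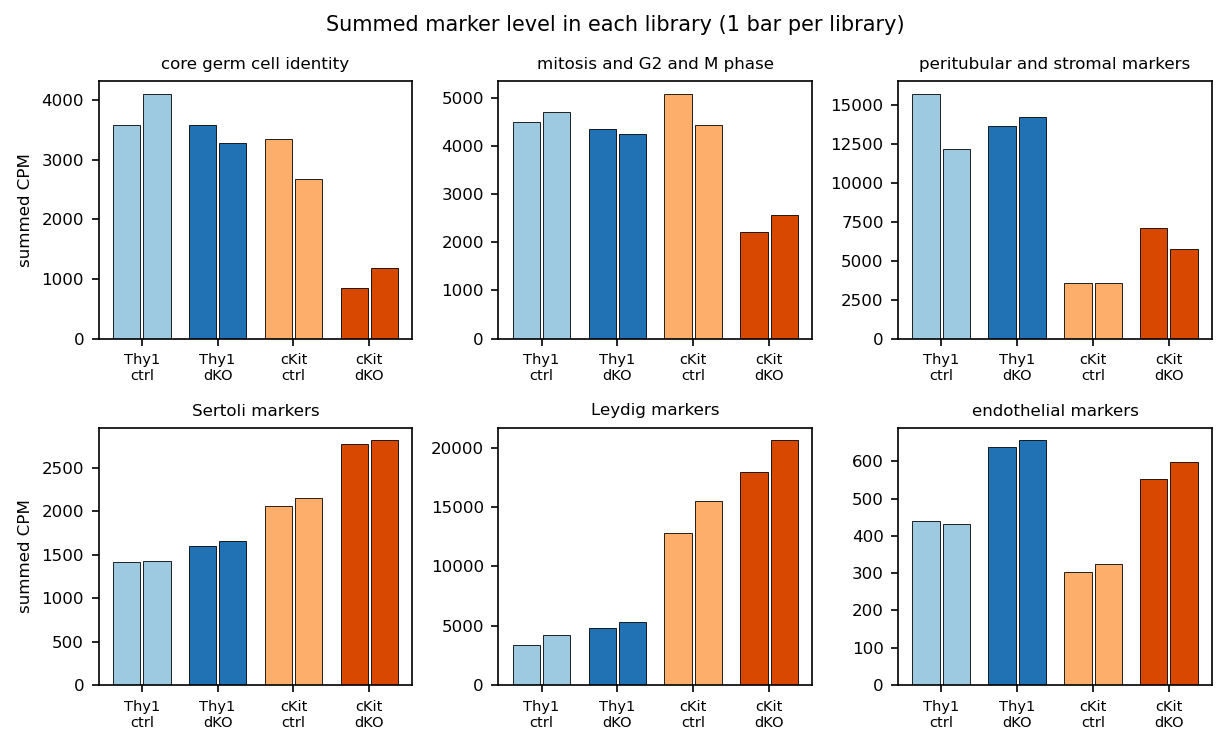
Summed CPM of 6 gene lists, with 1 bar per library from 0. Germ cell and mitosis sums are lowest in the 2 cKit dKO libraries, stromal sums are lowest in cKit control, and Leydig sums are highest in cKit dKO.

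Imprinted genes, expressed from 1 parental allele, had 9 positive calls among 33 measured members (27.3%, against 1.86% of all genes) and none negative. Their median interaction was 0.51. The calls of 5 were made again without each library. The 9 were Meg3, Rian, Rtl1 and Dlk1 of a single cluster on chromosome 12, the neighbours H19 and Igf2, and Ndn, Zim1 and Dcn, the last of which is also on the stromal list. Meg3, a maternally expressed long noncoding RNA, stood at 356 and 284 CPM in Thy1 control, 265 and 349.6 in Thy1 dKO, 170.4 and 211 in cKit control and 569 and 396 in cKit dKO, an interaction of 1.40 ± 0.25 (edgeR adjusted p = 0.00461). Dlk1, a paternally expressed gene of that cluster, stood at 430.3 and 409 CPM in Thy1 control, 434 and 503 in Thy1 dKO, 84.5 and 82.8 in cKit control and 199 and 198 in cKit dKO, an interaction of 1.09 ± 0.15 (edgeR adjusted p = 0.00139). Both rose in cKit+ dKO and were not called in Thy1+ cells, and both were called without any 1 library. The summed level of the list was 9355 and 9032 CPM in Thy1 control, 9690 and 10078 in Thy1 dKO, 4877 and 5150 in cKit control and 8867 and 7586 in cKit dKO. As in the stromal sum, the cKit dKO libraries lay above cKit control and below every Thy1+ library. Unlike there, both Thy1 dKO libraries lay above both Thy1 controls, and Meg3 in cKit dKO lay above every Thy1+ library. Alleles were not measured here.

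Ddit4, an inhibitor of mTORC1 signalling that responds to stress, had the highest interaction among called genes with a mean log2 CPM of at least 3 whose library differences did not overlap. It stood at 19.3 and 23 CPM in Thy1 control, 14.3 and 10.3 in Thy1 dKO, 9.35 and 10.8 in cKit control and 34.7 and 42.8 in cKit dKO. The Thy1 dKO libraries lay below both Thy1 controls, and the cKit dKO libraries above all 6 others. Its effects were -0.77 ± 0.23 in Thy1+ and 1.95 ± 0.24 in cKit+ cells, of which the latter was called, and the interaction was 2.72 ± 0.33 (edgeR adjusted p = 0.000834). Ddit4l, its paralog, stood at 88.8 and 76.5 CPM in Thy1 control, 113 and 108 in Thy1 dKO, 34.5 and 30.2 in cKit control and 109 and 89.1 in cKit dKO, an interaction of 1.19 ± 0.20 (edgeR adjusted p = 0.00364). Both were called without any 1 library. Mtor itself was negative, at -0.75 ± 0.16 (edgeR adjusted p = 0.0135), in 3 of the 8 fits without 1 library, and above 0 with germ cell scaling (0.52). Of the other 19 genes of this list, none was called, and called members were 13.6% of it against 5.92% of all genes.

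**Figure D4:**
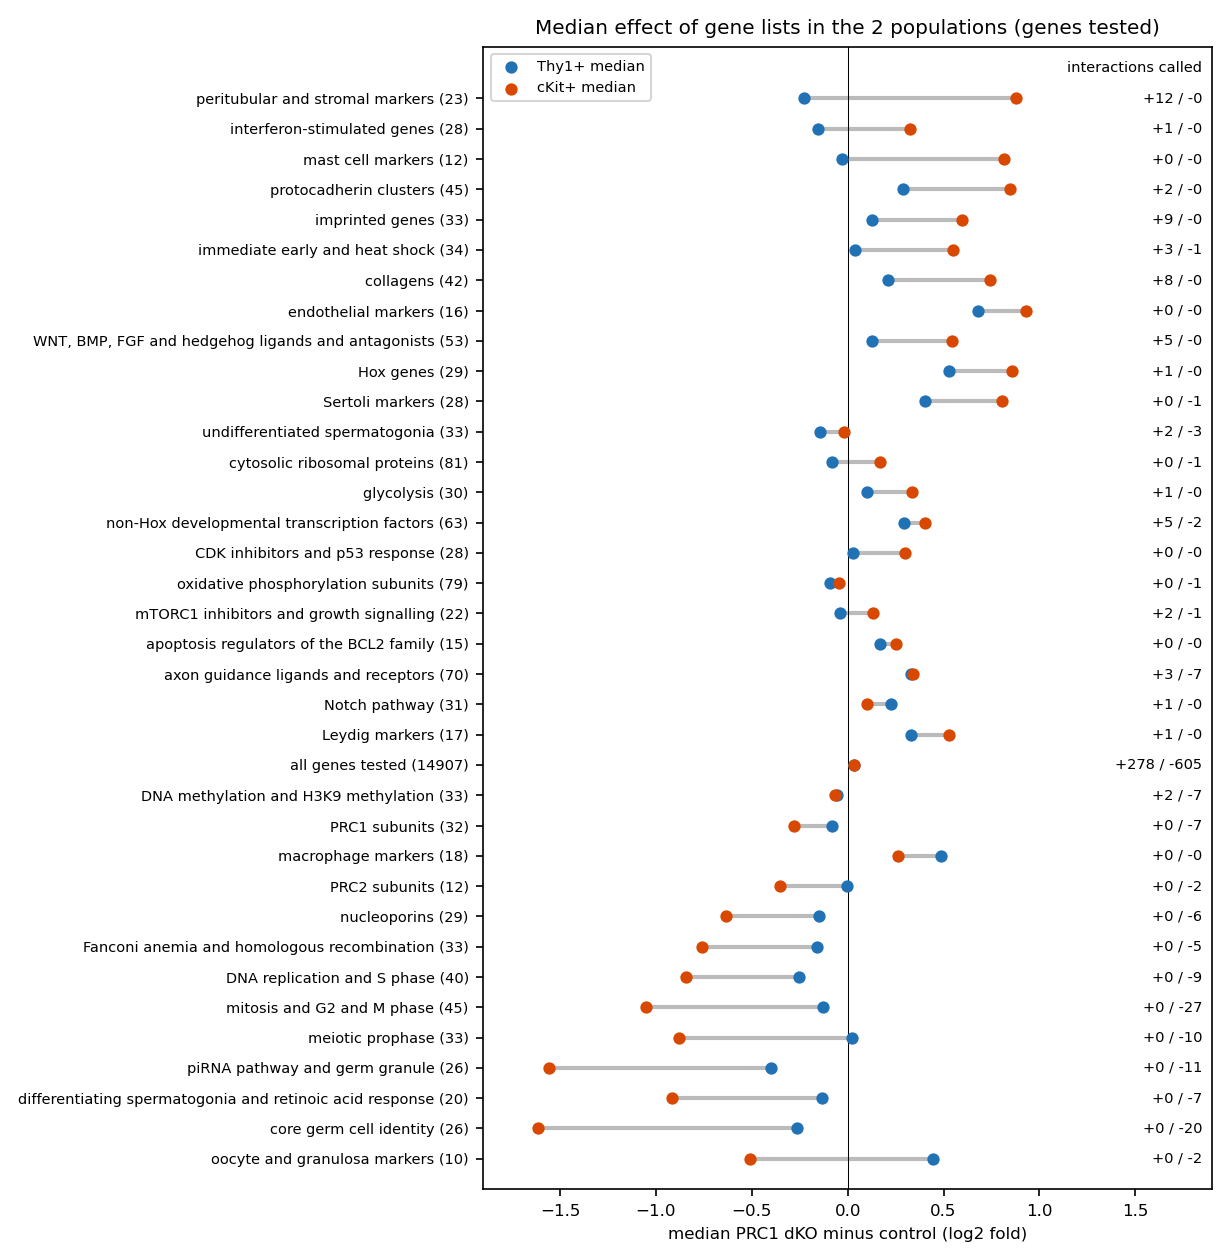
Median PRC1 dKO minus control (log2 fold) in Thy1+ (blue) and cKit+ cells (orange) for each list with at least 10 genes tested, ordered by median interaction, with the number tested in brackets and the interactions called at the right. Germ cell, meiotic and cell cycle lists lie lower in cKit+ than in Thy1+ cells, and stromal and imprinted genes higher.

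Effects of opposite sign, at least 0.5 on the log2 scale in each population, were found for 58 of the 883 called genes, 39 higher in Thy1+ and lower in cKit+ dKO and 19 the reverse. The naming rule gave 8 of them: Dpysl5, Mei1, Pet2, Sept3, Myh3, Ddit4, Cds1 and Acta2. Dpysl5, a cytosolic protein of growing neurons, was the only gene called in both populations with opposite signs. It stood at 21.3 and 30.4 CPM in Thy1 control, 50 and 50.6 in Thy1 dKO, 42.3 and 33 in cKit control and 14.4 and 17.6 in cKit dKO. Its effects were 0.96 ± 0.20 in Thy1+ (edgeR adjusted p = 0.0464) and -1.24 ± 0.21 in cKit+ cells (0.000611), an interaction of -2.20 ± 0.30 (0.00108). Cds1, an enzyme of phospholipid synthesis, stood at 13.7 and 14.8 CPM in Thy1 control, 25 and 21.5 in Thy1 dKO, 23.3 and 19.4 in cKit control and 7.2 and 10.4 in cKit dKO. Its interaction of -1.99 ± 0.35 was, like those of Dpysl5, Mei1 and Ddit4, called without any 1 library. Pet2 was called in 7 of these 8 fits, and not without Thy1 dKO replicate 1 (edgeR adjusted p = 0.0612). Sept3 and Myh3 were called in 2. Acta2, smooth muscle actin, stood at 695 and 270.2 CPM in Thy1 control, 289 and 273 in Thy1 dKO, 35.2 and 31 in cKit control and 52.2 and 55.4 in cKit dKO. The first Thy1 control library was far above the rest of its population, and without it the interaction was 0.64 and not called (edgeR adjusted p = 0.126). It was called in 3 of the 8 fits without 1 library.

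In 41 called genes the effect was larger in size in Thy1+ than in cKit+ cells. Brwd3, a bromodomain protein encoded on the X chromosome, stood at 149 and 179 CPM in Thy1 control, 84.1 and 73.2 in Thy1 dKO, 102 and 107 in cKit control and 129.8 and 123 in cKit dKO. The Thy1 dKO libraries lay below all 6 others, at -1.06 ± 0.13 in Thy1+ (edgeR adjusted p = 0.00251) against 0.28 ± 0.13 in cKit+ cells (0.116), an interaction of 1.34 ± 0.18 (0.00112). Zfp462, a zinc finger protein linked to heterochromatin, stood at 245 and 254 CPM in Thy1 control, 114 and 128 in Thy1 dKO, 106 and 113 in cKit control and 124 and 111 in cKit dKO. Here the Thy1 dKO values fell to about those of the cKit+ libraries, and the interaction was 1.15 ± 0.17 (edgeR adjusted p = 0.00148). Both genes were called without any 1 library. Aldoc, a glycolytic aldolase, stood at 28.4 and 30.4 CPM in Thy1 control, 11.4 and 13.1 in Thy1 dKO, 28.1 and 40.6 in cKit control and 37.3 and 40.5 in cKit dKO, and Hmgn5, a nucleosome-binding protein, at 41.8 and 50.4 CPM in Thy1 control, 22.5 and 24.4 in Thy1 dKO, 34.1 and 40.2 in cKit control and 43.5 and 48.8 in cKit dKO. They were called lower in Thy1+ dKO, with interactions of 1.46 ± 0.29 and 1.29 ± 0.24, and neither was called without Thy1 dKO replicate 1 (edgeR adjusted p = 0.0718 and 0.0544). Fndc3c1, Hsf5 and 4930506M07Rik were higher in Thy1+ dKO libraries, at 1.40 ± 0.30, 1.19 ± 0.31 and 1.03 ± 0.25, without passing the test in that population alone, and their interactions were called in 5, 2 and 1 of the 8 fits without 1 library. Ifitm3, an interferon-induced membrane protein, was the eighth gene under this rule, at 1.61 ± 0.40, called in 3 of the 8.

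**Figure D5:**
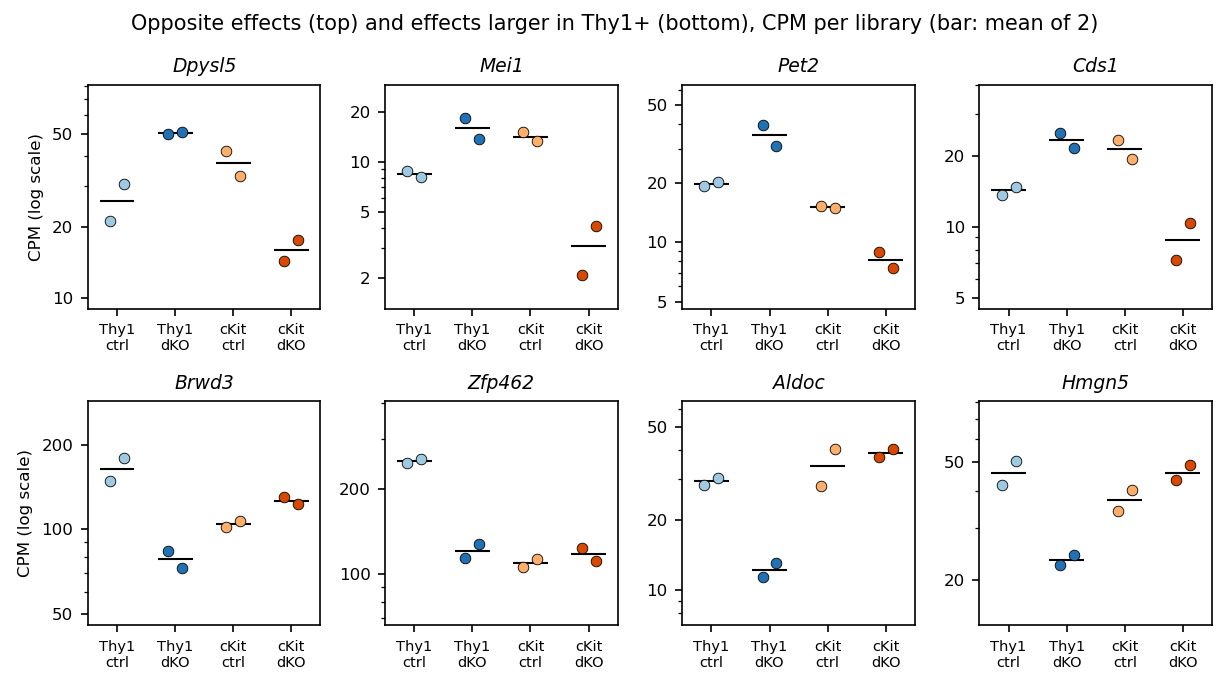
CPM on a log axis in each library for 4 genes with opposite effects (top) and 4 with larger effects in Thy1+ cells (bottom), with 1 point per library and a bar at the mean of 2. Brwd3, Zfp462, Aldoc and Hmgn5 are lower in both Thy1 dKO libraries than in Thy1 control, while their cKit groups lie close together.

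Effects shared by both populations were also seen. For 1654 genes, 11.1% of those tested, the whole 95% interval of the interaction lay within a 1.5-fold difference of effects in either direction. Of 69 genes called in both populations, 68 had the same sign (41 higher and 27 lower), and 11 of the 69 had a called interaction. Among 23 well expressed genes called in both with an interval inside the bound, the largest mean effects were those of Irf8, Gramd1b, Layn, Hipk2, Cd93, Ehmt2, Scaper and Lama2. Hipk2, a nuclear kinase, stood at 191 and 190.3 CPM in Thy1 control, 308 and 324 in Thy1 dKO, 823 and 809 in cKit control and 1542 and 1619 in cKit dKO. Its effects were 0.73 ± 0.10 and 0.95 ± 0.09, with an interaction interval of -0.06 to 0.51. Cd93, a surface glycoprotein of endothelial and myeloid cells, stood at 65 and 69.5 CPM in Thy1 control, 107 and 122 in Thy1 dKO, 63.6 and 68.4 in cKit control and 108 and 118 in cKit dKO. Its interval was -0.37 to 0.40. Ehmt2, the H3K9 methyltransferase G9a, stood at 72.2 and 75.6 CPM in Thy1 control, 43.4 and 42.9 in Thy1 dKO, 106 and 91.1 in cKit control and 54.9 and 65.9 in cKit dKO. It was called lower in both, at -0.78 ± 0.14 and -0.70 ± 0.14, with an interval of -0.35 to 0.50. Under germ cell scaling the bound held for 2 genes in place of 1654.

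Hox genes are the classical targets of PRC1. Of 29 measured, 1 had a called interaction (3.45%), Hoxc4, which stood at 14.5 and 9.27 CPM in Thy1 control, 4.39 and 5.45 in Thy1 dKO, 3.55 and 4.72 in cKit control and 9.61 and 6.12 in cKit dKO and was called in 4 of the 8 fits without 1 library. The list's median effect was 0.53 in Thy1+ and 0.86 in cKit+ cells, with 7 of the 29 called higher in cKit+ cells, against 13.2% of all genes, and none called in Thy1+ cells, against 0.624%. No member had an interval within 1.5-fold, so for the other 28 the data show neither a shared nor a different effect. Of 63 other developmental transcription factors, 5 had positive and 2 negative calls, 11.1% of the list against 5.92% of all genes. Their median effects were 0.29 in Thy1+ and 0.40 in cKit+ cells. Cdkn2a, which encodes cell cycle inhibitors held silent by PRC1 in many cells, was near the detection limit, at 1.31 and 1.53 CPM in Thy1 control, 1.46 and 1.09 in Thy1 dKO, 1.21 and 0.893 in cKit control and 0 and 0 in cKit dKO. Its interaction did not pass (edgeR adjusted p = 0.0952). With 3 counts for the 2 cKit dKO libraries together as an assumed floor, it was 4.56-fold lower in cKit dKO than in cKit control. That ratio leaves out the error of the 14 and 7 counts in cKit control. The list of CDK inhibitors and p53 response genes (28, Cdkn2a among them) and the BCL2 family (15) gave no called interaction, against 5.92% of all genes. In cKit+ cells 9 of the 28 were called higher and 5 lower, and 4 of the 15 higher and 2 lower, against 13.2% and 15.4% of all genes. Cytosolic ribosomal proteins gave 1 call among 81, Rpl39l (1.23%, against 5.92% of all genes). Of the 81, 35 had an interval within the bound, against 11.1% of all genes.

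By chromosome, negative calls were most frequent on the X among those with over 10 genes tested, at 43 of 577 genes (7.45%) against 4.06% over all. Positive calls there were 12 (2.08%), near the 1.86% of all genes. The median interaction of X genes was 0.076, the highest of any chromosome, against -0.020 over all genes. The X genes as a whole were thus not shifted to negative interactions. The X-linked germ cell genes Usp26, Taf7l and Tex11 are among the 43, and genes of 1 chromosome are not independent. For 5257 genes, 35.3% of those tested, all 4 dKO-control library differences of cKit+ cells lay to 1 side of all 4 of Thy1+ cells, which counts far more genes than the test calls.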

How the data were processed

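Total RNA libraries of 4 groups with 2 libraries each were analysed. The aligner was STAR 2.4.2a and the genome mm10, per the submitters' processing notes. The counting tool, strand setting and gene filters are not given in the sources used here, so reads of overlapping, antisense and near-identical genes may be shared. The deposited tables give, per the file headers, a raw read count and an RPKM value (reads scaled to transcript length and library size, made by the authors) for each of 26099 RefSeq entries. Counts were summed over entries of a symbol, which can count a read more than once where entries overlap: 2060 of 23343 symbols had several.

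Genes were filtered with filterByExpr, scaled by TMM and fitted with edgeR 4.0.16 in R 4.3.3 (quasi-likelihood, 1 mean per group, 8 libraries, 4 residual degrees of freedom). The interaction was tested as a contrast, two-sided, with Benjamini-Hochberg adjustment over 14907 genes, and errors are SE from that fit. CPM values are counts scaled to the TMM-adjusted library size. The fit was tested on simulated data. Ribosomal Rn45s took 8.42 to 13.6% of counts. Replicates differed beyond sampling noise in each group (chi-square per degree of freedom 4.35 to 13.1), so all counted singly. The identifiers in the labels set cKit control replicate 1 apart from the other cKit+ libraries, and what they stand for is not given.

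Genes were named by a rule: 12 chosen markers; among called genes whose mean log2 CPM reached 3 and whose library differences did not overlap, the 12 highest and 12 lowest interactions, the 8 with the most opposite effects and the 8 with the largest Thy1 effect exceeding the cKit effect; 8 shared effects; and up to 4 called members of each of 38 lists. Other list members given by name, such as Top2a, Mki67, Dnmt1 and Tet1, were named after their values were seen. Members and lists were chosen with earlier results of these data known. Upstream sequences are from the RefSeq promoter table for GRCm38.p6, matched by symbol within 500 bases of the deposited start for 10563 genes. The alternatives were other scalings, filters, DESeq2 1.42.0, limma 3.58.1 on counts and on log2(RPKM + 0.1) or log2(RPKM + 1), the largest entry per symbol, a replicate block, and each library left out.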

Additional observations from a re-analysis of the deposited data

Results flagged for a closer look

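The dKO effect differed between the populations, by the interaction test itself, for 605 genes in the negative and 278 in the positive direction (edgeR adjusted p under 0.05). Among them, 58 had effects of opposite sign and at least 0.5 in size in both populations, and 29 of these met the rule on expression and library differences, of which the 8 with the largest smaller effect are given here. The interaction was -2.20 for Dpysl5, -3.11 for Mei1, -1.73 for Pet2, -1.69 for Sept3, -1.73 for Myh3 and -1.99 for Cds1, all higher in Thy1+ dKO and lower in cKit+ dKO libraries than in control. It was 2.72 for Ddit4 and 1.47 for Acta2, with the reverse order.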

How the results depend on the processing

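Of the 883 interaction calls, 614 (459 negative and 155 positive) were made again under 6 other scalings and tools, and 193 of them also without each library in turn. Library totals gave 172 positive and 966 negative calls. With germ cell scaling there were 8614 interaction calls (8578 positive, 36 negative), 44 calls in Thy1+ and 11909 in cKit+ cells and 2 genes with an interval within 1.5-fold. Among the genes named by the rule and called as reported or under the alternative, this setting alone turned directions: Rnf2 1.10, Gramd1b 1.05, Layn 1.26, Scaper 1.10, Itga6 0.063, Mcm6 0.12, Rpa2 0.13, Pole 0.21, Cdt1 0.30, Bard1 0.10, Exo1 0.14, Cbx2 0.071, L3mbtl2 0.20, Jarid2 0.34, Eed 0.44, Setdb2 0.063, Suv39h2 0.075, Hsp90aa1 0.61, Mtor 0.52, Atp5f1 0.47, Nup93 0.31, Nup133 0.26 and Nup205 0.39. Genes outside the named ones that turned are not listed here. Genes called in neither also changed sign when 1 library was left out, such as Ring1 (-0.55 to 0.99) and Gfra1 (-0.21 to 0.42), and some list medians changed sign under RPKM values, library totals or without 1 library. Without a filter there were 1490 calls (550 positive, 940 negative) and 563 in Thy1+ cells, and with a stricter filter 165 in Thy1+ cells. DESeq2 gave 450 positive calls and 334 in Thy1+ cells, limma voom 188 and weighted voom 822 in Thy1+ cells. RPKM values gave 41 positive, 1127 negative and 6 Thy1+ calls with a pseudocount of 0.1, and 35, 1013 and 24 with 1. The largest entry per symbol gave 433 calls (101 positive, 332 negative) and 9 in Thy1+ cells, and among 13400 symbols with a single entry, whose counts it leaves alone, calls went from 794 to 383 as the prior degrees of freedom went from 11 to 5.4. Leaving out 1 library gave 219 to 1268 interaction calls, 55 to 550 positive, 164 to 718 negative, 3 to 400 in Thy1+ cells, 2386 to 3972 in cKit+ cells and 801 to 1421 genes within the interval bound; the lone library left in a group is then assumed to vary like the others. A replicate block gave 790 calls; same-numbered libraries had correlated deviations of -0.0453 to 0.0522, so the numbers do not show a pairing. With 2 libraries a group, a gene that missed the threshold is not shown to respond alike.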
